A study of Mus musculus with 8 samples.

Results

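The 10 genes described here encode the main stress-inducible and constitutive chaperones of the cytosol and of the mitochondrial matrix. They were chosen by name, as a list of heat shock protein genes, with earlier results of these data known. All 10 were found once each among the 49671 genes of the count tables. The list holds Hspa1a, Hspa1b, Hspa8, Dnajb1 and Hsph1 of the HSP70 system, Hsp90aa1 and Hsp90ab1, the small heat shock protein gene Hspb1, and the mitochondrial chaperonin genes Hspd1 and Hspe1. Polyadenylated RNA was sequenced from mouse cells labelled adipocytes, in 4 samples labelled BMPR2 DELX, from mice with a mutant BMPR2, and 4 samples labelled ROSA, which serve as the control. The labels do not state how the BMPR2 DELX allele was built, which promoter drives it, what ROSA carries, the age or sex of the mice, any drug or time, or whether each sample came from a separate animal, so p-values measure the spread between samples only. All levels are library-size-scaled counts (CPM, with trimmed mean of M values factors), as mean ± SD over 4 libraries. Differences are fitted log2 fold changes (BMPR2 DELX over ROSA) ± the standard error (SE), tested with the edgeR quasi-likelihood test and Benjamini-Hochberg adjustment over all genes tested.

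Heat shock chaperones bind unfolded or newly made proteins and help them fold, refold or be degraded. The HSP70 proteins work in an ATP-driven cycle that J-domain proteins start and nucleotide exchange factors end, and they hand clients such as kinases and steroid receptors on to HSP90, while small heat shock proteins hold unfolding proteins without using ATP. In the mitochondrial matrix, HSP60 forms a folding chamber that the HSP10 ring closes. When unfolded protein builds up, heat shock factor 1 (HSF1) binds heat shock elements, which are repeats of GAA units in alternating orientation, upstream of the inducible genes of this group.

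The libraries held 28799445 to 43684785 counts assigned to genes on the opposite strand, and 14.7% to 22.0% of a library's reads named no gene. Bmpr2 itself did not pass the test, with 211 ± 17.6 CPM in BMPR2 DELX, against 197 ± 17.05 CPM in ROSA, and these counts say nothing of single exons. Of the 10 mature adipocyte and lipid genes looked at, 7 were left out of the test for low counts in these cells labelled adipocytes, among them Adipoq, Lep and Plin1, while Col1a1 had 6102 ± 1010 CPM in BMPR2 DELX, against 5151 ± 747 CPM in ROSA. The libraries ROSA 1 and ROSA 2 stood apart in immediate early genes, which are switched on within minutes of a stimulus. The summed level of 18 such genes ranged from 1005 to 1112 CPM in BMPR2 DELX, against 2560 CPM in ROSA 1, 2864 CPM in ROSA 2, 1271 CPM in ROSA 3 and 1250 CPM in ROSA 4. The summed level of 10 macrophage genes was 37.4 to 70.4 CPM in BMPR2 DELX, against 25.0 to 36.4 CPM in ROSA, without overlap, and 6 of the 10 were too low to test. The largest part was Csf1r, with 29.0 ± 7.97 CPM in BMPR2 DELX, against 22.0 ± 3.15 CPM in ROSA, which overlapped and did not pass. Of the 4 macrophage genes tested, all had positive log2 fold changes, and Cd68 alone passed (0.72 ± 0.16, edgeR adjusted p 0.0238). The summed level of the 10 adipocyte genes was 252 to 308 CPM in BMPR2 DELX and 201 to 234 CPM in ROSA, also without overlap. Most of that sum was Lpl, with 210 ± 34.5 CPM in BMPR2 DELX, against 140 ± 17.65 CPM in ROSA. Of the 3 adipocyte genes tested, Lpl passed as higher (log2 fold change 0.58 ± 0.13, edgeR adjusted p 0.0241). Pparg (0.44 ± 0.14) and Fabp4 (-0.29 ± 0.19) did not pass. The sums of 10 endothelial genes (307 to 1354 CPM in BMPR2 DELX, 571 to 1319 CPM in ROSA), of 10 epithelial genes (23.0 to 57.7 CPM in BMPR2 DELX, 33.1 to 49.4 CPM in ROSA) and of 8 fibroblast and contractile genes (18320 to 26250 CPM in BMPR2 DELX, 19390 to 24270 CPM in ROSA) overlapped between the groups. The part of these cell type markers in the chaperone levels was not tested. In bulk RNA, fewer cells of a type and less RNA per cell cannot be told apart.

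The upstream sequences are shown for how alike the inducible HSP70 pair is and for where letters of the heat shock element pattern occur. They are from RefSeq (GRCm38.p6), which had a promoter window, 250 bases before to 50 bases after a gene's start, for 7 of the 10 members, Hspa8, Hsp90aa1 and Hsp90ab1 not being among them. Capitals mark every match to TTCNNGAA or GAANNTTC, the pairs of facing or opposed units of a heat shock element, and both patterns read the same on either strand. The lines give stretches on the gene's own strand, with bases numbered from the annotated start.
Hspa1a, bases -220 to -71, minus strand, chr17:34972227-34972376: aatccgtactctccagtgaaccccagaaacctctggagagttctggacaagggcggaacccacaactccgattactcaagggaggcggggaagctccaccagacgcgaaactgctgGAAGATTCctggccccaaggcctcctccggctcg
Hspa1b, bases -220 to -71, minus strand, chr17:34959309-34959458: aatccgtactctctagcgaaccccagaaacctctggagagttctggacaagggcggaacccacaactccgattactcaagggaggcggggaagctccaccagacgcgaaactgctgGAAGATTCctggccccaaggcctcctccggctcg
Hspe1, bases -105 to -56, plus strand, chr1:55088043-55088092: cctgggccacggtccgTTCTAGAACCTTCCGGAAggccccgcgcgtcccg
Hspb1, bases -130 to -71, plus strand, chr5:135887789-135887848: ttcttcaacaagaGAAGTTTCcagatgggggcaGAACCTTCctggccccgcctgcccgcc
Hsph1, bases -45 to -6, minus strand, chr5:149636342-149636381: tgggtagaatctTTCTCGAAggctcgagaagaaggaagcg
Hsph1, bases 30 to 50, minus strand, chr5:149636287-149636307: ctgcagaTTCTGGAAAGTTCt

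The Hspa1a and Hspa1b windows differed at 4 of 300 positions (98.7% identity), at C44T, T47C, T249G and C276T, where the base of Hspa1a is given first and positions count from 1 at the 5′ end of the window, which lies 250 bases before the start. Hspe1 carried an unbroken run of 4 units, which holds 2 overlapping matches to a longer pattern, 3 alternating units with 2 free bases between neighbours, searched on both strands. The same run lies in a window of Hspd1, since both genes are read outwards from one shared promoter on chromosome 1 and their exons overlap by 112 bases on opposite strands. Hsph1 had 1 match to the longer pattern, which lies just after its start. Hspa1a and Hspa1b had 1 match each to the shorter patterns, Hspb1 had 2, and Dnajb1 had none (0) in either of its windows. Among all 32851 windows of this length, 15.1% held a shorter match and 0.603% a match to the longer pattern. A match is a run of letters and does not show that a factor binds there, and no match says only that these letters are not in this window.

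Copies elsewhere in the genome limited how well most members could be counted, because the tables keep multimapping reads apart from the genes. The coding sequences of Hspa1a (1923 bases) and Hspa1b (1926 bases), neighbours on chromosome 17 with 9951 bases between them, were 99.4% identical when aligned. Of the 50-base stretches of the main coding transcript, 66.3% in Hspa1a and 62.3% in Hspa1b occurred in a transcript of another gene. The share was 74.8% in Hspa8, with 12 of the 13 genes that share them annotated as pseudogenes, 60.4% in Hspb1, 58.5% in Hsp90aa1 and 44.8% in both Hspd1 and Hspe1. On GRCm38, Hspa8 lies at chr9:40800984-40810087, Hsp90aa1 at chr12:110690605-110702728, Hsp90ab1 at chr17:45567775-45573271, Hspa1a at chr17:34969190-34972156 and Hspa1b at chr17:34956436-34959238. Hsp90ab1 (4.49%), Dnajb1 (0.441%) and Hsph1 (0) were nearly free of such copies. The length of the reads is not given in the sources used here, so the share of reads lost is not known, and levels of the members with copies rest on their unique stretches. On the opposite strand from Hspa1a lies Gm20481, which overlaps 564 of its 2967 exonic bases. Hspa1a had 917 counts in all 8 libraries in the stranded column and 381 in the unstranded one. Some of the shared stretches of Hspa1a and Hspe1 lie in Gm20481 and Hspd1, which overlap them on the opposite strand. Such an overlap is not a copy elsewhere.

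**Figure D1:**
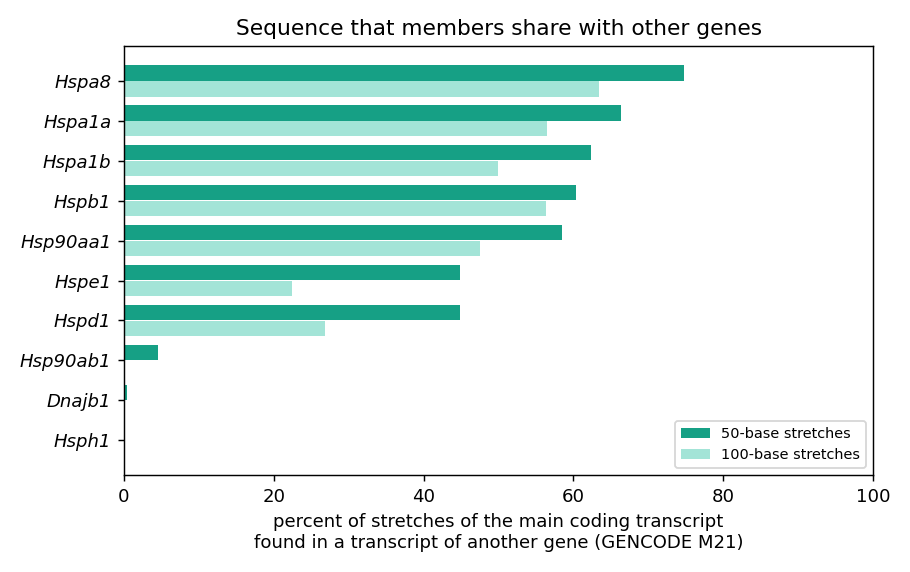
Share of 50-base (dark bars) and 100-base (light bars) stretches of each member's main coding transcript that occur in a GENCODE M21 transcript of another gene, in percent. The bars run from 74.8% of 50-base stretches in Hspa8 to 0 in Hsph1.

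Per kilobase of exon, Hsp90ab1, the constitutive cytosolic HSP90, was the most abundant member and the inducible Hspa1a the least. On this scale (CPM per kilobase) Hsp90ab1 had 630 ± 37.2 in BMPR2 DELX and 618 ± 21.9 in ROSA, Hspa8 had 225 ± 13.4 and 249 ± 19.2, and Hspb1 had 193 ± 37.5 and 229 ± 15.2. Hsp90aa1 followed with 159 ± 8.93 in BMPR2 DELX and 189 ± 13.6 in ROSA, then Hspd1 with 148 ± 7.80 and 160 ± 11.2, and Hspe1 with 54.7 ± 1.60 and 58.3 ± 4.08. Dnajb1 (16.6 ± 1.33 in BMPR2 DELX, 21.7 ± 4.16 in ROSA) and Hsph1 (15.3 ± 1.23 and 15.9 ± 1.74) stood far below, and Hspa1b (2.10 ± 0.360 and 2.95 ± 0.279) and Hspa1a (0.859 ± 0.304 and 1.30 ± 0.0690) were lowest. Neighbours in this order whose libraries overlapped in both groups were Hspa8 and Hspb1, Hsp90aa1 and Hspd1, and Dnajb1 and Hsph1. Hspb1 and Hsp90aa1 overlapped in BMPR2 DELX only. The length used covers all annotated exons, 7266 bases in Hsph1 and 3204 in Dnajb1, against 3802 and 2996 bases in their main coding transcripts. For Hspa8 it was 4301 against 2394 bases, and for Hspe1 1474 against 774 bases. Because of this, and because the members differ in how much sequence they share with other genes, their order by level is approximate. Together the 10 genes took 0.412% to 0.472% of all counts in BMPR2 DELX libraries and 0.427% to 0.462% in ROSA libraries.

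None (0) of the 10 members passed the test between BMPR2 DELX and ROSA at an adjusted p below 0.05 in edgeR, while 9.10% of the 14887 genes tested did, 3.96% higher and 5.15% lower (with upper-quartile factors, 734 higher and 606 lower in place of 589 and 766). All 10 passed the filter on low counts and were tested. At an unadjusted p below 0.05, 4 members (Hspa1b, Hsp90aa1, Dnajb1 and Hspa1a) were lower in BMPR2 DELX, a background of 13.4% of all genes. The fitted log2 fold change was negative for 9 of 10 members, against 49.3% of all genes, and had a median of -0.20 over the members and 0.005 over all genes. With DESeq2 size factors and with upper-quartile factors 9 of 10 members were negative as well. The background moved with the scaling: with upper-quartile factors, 6374 of the 14887 genes were negative, and the medians were -0.156 over the members and 0.043 over all genes. DESeq2, another count test, called 3 members lower, Hspa1b, Hsp90aa1 and Dnajb1, with adjusted p of 0.0144, 0.0174 and 0.0394. It also called more genes in all, 1219 lower and 1065 higher of the 14887.

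**Figure D2:**
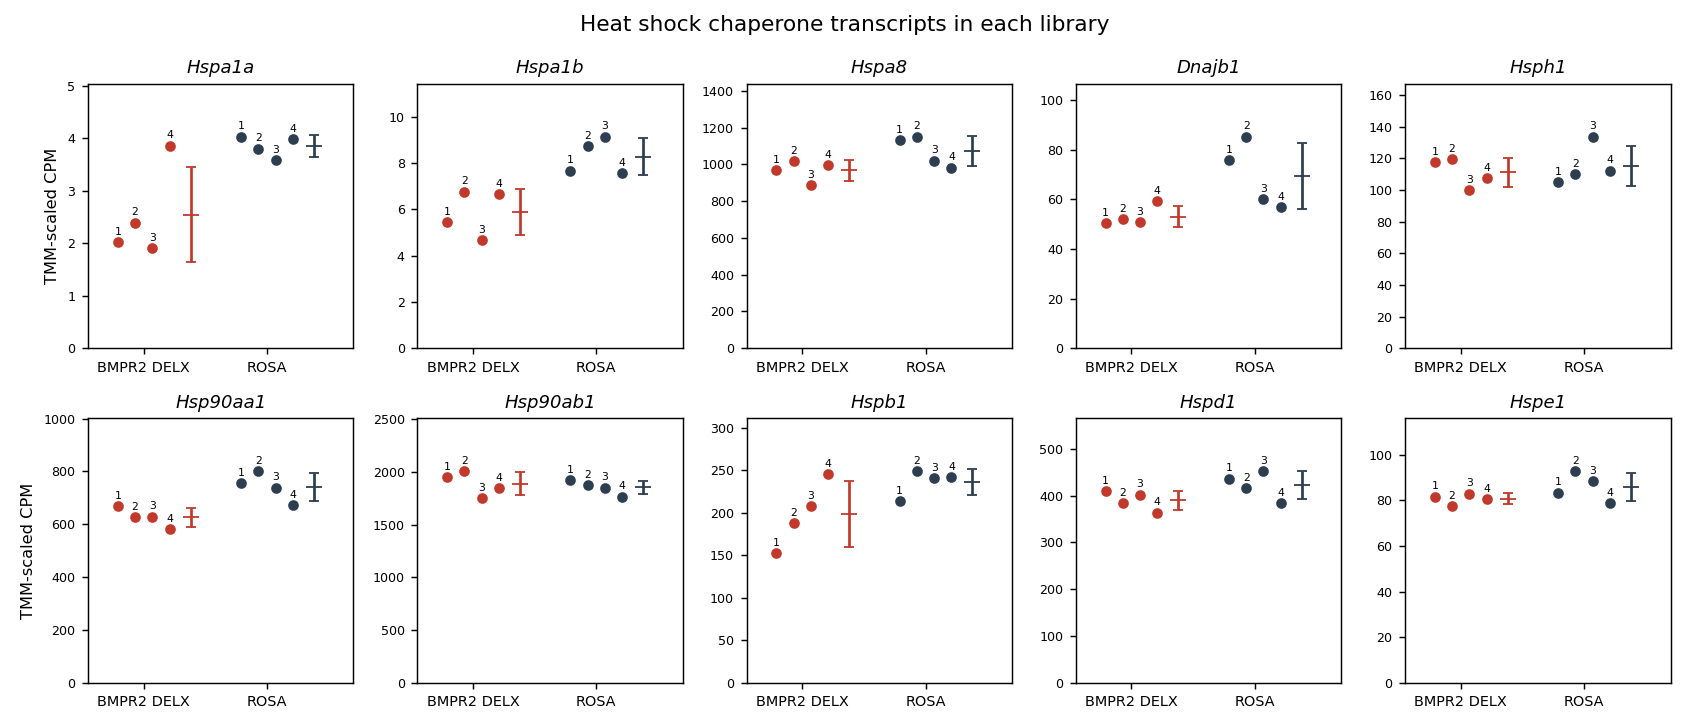
TMM-scaled CPM of each member in BMPR2 DELX (red) and ROSA (dark) libraries, each point 1 library with its replicate number, and the bar the mean ± SD over 4 libraries. All BMPR2 DELX libraries lie below all ROSA libraries for Hspa1b and Hsp90aa1, and the groups overlap for the other 8 genes.

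Among the inducible HSP70 genes, the level of Hspa1b was 5.43, 6.76, 4.66 and 6.65 CPM in BMPR2 DELX 1 to 4, against 7.67, 8.73, 9.14 and 7.55 CPM in ROSA 1 to 4. Every BMPR2 DELX library lay below every ROSA library, a pattern in this direction that 9.64% of all genes tested showed (18.0% in either direction). The log2 fold change was -0.49 ± 0.14 (SE, n = 4 each), with an edgeR adjusted p of 0.0571. Its twin Hspa1a had 2.03, 2.39, 1.91 and 3.86 CPM in BMPR2 DELX 1 to 4, against 4.04, 3.81, 3.59 and 4.00 CPM in ROSA 1 to 4. BMPR2 DELX 4 lay within the range of ROSA and the other BMPR2 DELX libraries below it. The log2 fold change was -0.59 ± 0.22, with an edgeR adjusted p of 0.125. Without BMPR2 DELX 4 it was -0.87 ± 0.16 with an adjusted p of 0.0189. A larger difference follows from leaving out the mutant library within the range of ROSA, and only 1 of 16 other settings, this fit, passed. Without BMPR2 DELX 3 the log2 fold change was -0.47 ± 0.22 (edgeR adjusted p 0.236). With the unstranded counts, where the overlapping Gm20481 matters, it was -0.40 ± 0.25. These genes had few counts, 62 to 173 per library for Hspa1a and 159 to 360 for Hspa1b. Reads that align equally well to both genes are in neither count, and the sum of both genes was 8.43 ± 1.76 CPM in BMPR2 DELX, against 12.1 ± 0.589 CPM in ROSA. The ratio of Hspa1b to Hspa1a, 2.42 ± 0.488 in BMPR2 DELX and 2.16 ± 0.320 in ROSA, overlapped between the groups.

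Hspa8 encodes HSC70, the constitutive cytosolic HSP70. It had 969, 1017, 885 and 997 CPM in BMPR2 DELX 1 to 4, against 1131, 1151, 1020 and 982 CPM in ROSA 1 to 4. The groups overlapped through ROSA 4, and the log2 fold change was -0.15 ± 0.08 (edgeR adjusted p 0.246). Dnajb1, the J-domain protein that stimulates the HSP70 ATPase, had 50.3, 52.0, 50.7 and 59.4 CPM in BMPR2 DELX 1 to 4, against 75.7, 85.4, 60.2 and 57.1 CPM in ROSA 1 to 4. Its 2 highest libraries were ROSA 1 and ROSA 2, which were also highest in the immediate early genes, and the part of that difference in the level of Dnajb1 was not tested. The log2 fold change was -0.39 ± 0.13 (edgeR adjusted p 0.0843) with all libraries and -0.13 ± 0.09 (adjusted p 0.536) without ROSA 1 and ROSA 2. Without ROSA 4 alone it was -0.47 ± 0.12 and passed (adjusted p 0.0428). For Hspa8 the log2 fold change without ROSA 1 and ROSA 2 was -0.035 ± 0.09. Hsph1, the HSP110 protein that exchanges nucleotide on HSP70, ranged from 100.2 to 119 CPM in BMPR2 DELX and from 105 to 134 CPM in ROSA. Its log2 fold change of -0.055 ± 0.09 (edgeR adjusted p 0.736) was smaller than its SE.

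Of the cytosolic HSP90 genes, the libraries of the groups did not overlap for the inducible paralog and overlapped for the constitutive one. Hsp90aa1, the stress-inducible form, had 669, 626, 629 and 583 CPM in BMPR2 DELX 1 to 4, against 757, 801, 739 and 672 CPM in ROSA 1 to 4. BMPR2 DELX 1 and ROSA 4 lay close together. The log2 fold change was -0.24 ± 0.07 (edgeR adjusted p 0.0635), -0.16 ± 0.09 without ROSA 1 and ROSA 2, and -0.29 ± 0.07 without ROSA 4, which passed (adjusted p 0.0441). Hsp90ab1, the constitutive form, had 1950, 2006, 1755 and 1846 CPM in BMPR2 DELX 1 to 4, against 1922, 1873, 1851 and 1765 CPM in ROSA 1 to 4. The groups overlapped fully and the log2 fold change was 0.03 ± 0.07 (adjusted p 0.824). The ratio of Hsp90aa1 to Hsp90ab1 within a library was 0.343, 0.312, 0.358 and 0.316 in BMPR2 DELX 1 to 4, against 0.394, 0.427, 0.399 and 0.381 in ROSA 1 to 4. Its mean was 0.332 ± 0.0221 in BMPR2 DELX and 0.400 ± 0.0197 in ROSA, without overlap, and the difference was not tested. A ratio within a library does not depend on the scaling, and it does not show which of the paralogs changed.

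**Figure D3:**
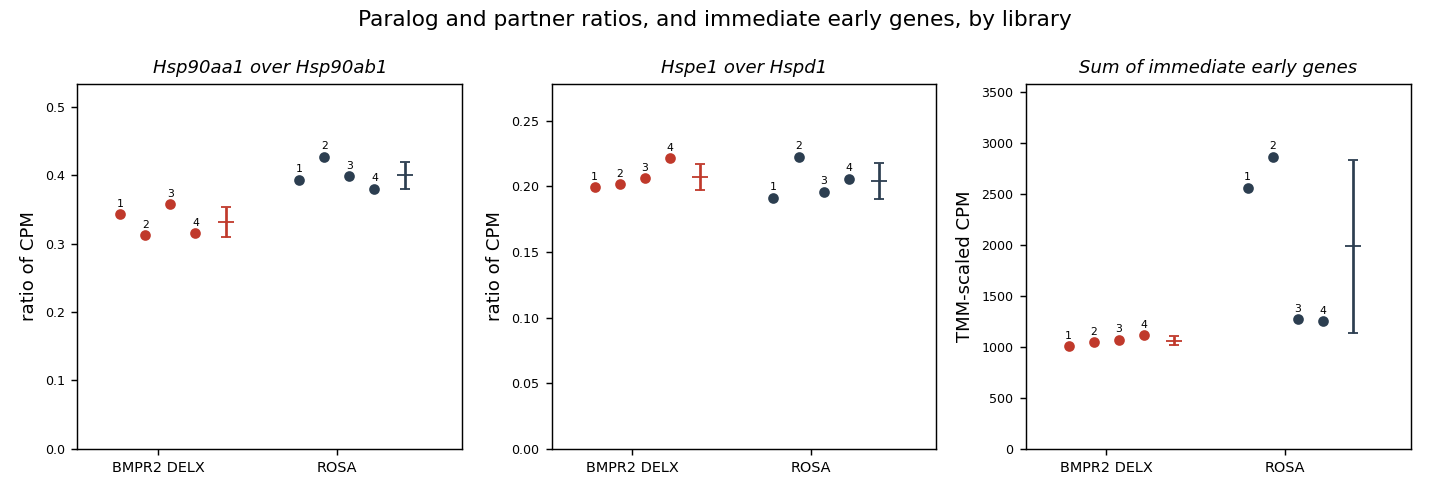
Ratio of Hsp90aa1 to Hsp90ab1, ratio of Hspe1 to Hspd1, and summed CPM of 18 immediate early genes, each point 1 library with its replicate number and the bar the mean ± SD over 4 libraries. The first ratio lies at 0.312 to 0.358 in BMPR2 DELX (red) and 0.381 to 0.427 in ROSA (dark), the second overlaps between the groups, and ROSA 1 and ROSA 2 stand above the other libraries in the third panel.

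Hspb1, the small heat shock protein HSP27 (HSP25 in mice), which also acts on actin filaments, was uneven among the mutant libraries. It had 153, 188, 208 and 246 CPM in BMPR2 DELX 1 to 4, against 214, 249, 241 and 242 CPM in ROSA 1 to 4. BMPR2 DELX 4 lay inside the range of ROSA and the other BMPR2 DELX libraries below it. The log2 fold change was -0.25 ± 0.13 (edgeR adjusted p 0.24), and it was -0.14 without BMPR2 DELX 1 and -0.37 without BMPR2 DELX 4.

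The mitochondrial chaperonin genes overlapped between the groups, and so did their ratio. Hspd1, encoding HSP60, had 410, 384, 402 and 364 CPM in BMPR2 DELX 1 to 4, against 436, 417, 452 and 383 CPM in ROSA 1 to 4, and Hspe1 (HSP10) had 81.7, 77.5, 83.0 and 80.7 CPM against 83.4, 92.8, 88.5 and 78.9 CPM. The log2 fold changes were -0.11 ± 0.07 for Hspd1 (edgeR adjusted p 0.334) and -0.091 ± 0.06 for Hspe1 (edgeR adjusted p 0.394). Hspe1 ran at 0.207 ± 0.0102 of the CPM of Hspd1 in BMPR2 DELX and 0.204 ± 0.0138 in ROSA.

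**Figure D4:**
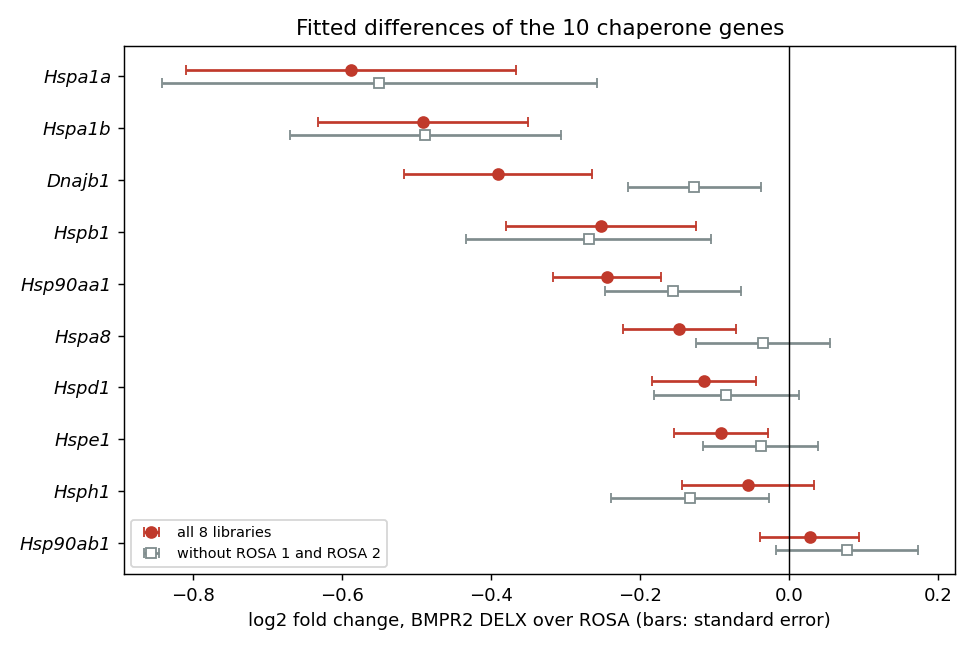
Fitted log2 fold change of BMPR2 DELX over ROSA with its SE for each member, with all 8 libraries (filled circles) and without ROSA 1 and ROSA 2 (open squares). Dnajb1 lies at -0.39 with all libraries and at -0.13 without these, while Hspa1b lies at -0.49 in both.

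The rest of the chaperone network was read from lists of 89 genes, of which 87 were tested and 6 (6.90%, against 5.15% of all genes) were lower, none (0) was higher and 81 did not pass, with a median log2 fold change of -0.07. Of the other small heat shock proteins, 1 of 5 tested genes, Cryab, was lower and 4 did not pass. Cryab encodes alphaB-crystallin, a small heat shock protein abundant in muscle and lens, and had 299, 339, 391.6 and 393 CPM in BMPR2 DELX 1 to 4, against 635, 603, 714 and 584 CPM in ROSA 1 to 4. The groups were far apart, and Cryab fell by 0.83 on the log2 scale (SE 0.10, edgeR adjusted p 0.00306), a call that held without each library in turn and without both ROSA 1 and ROSA 2 (log2 fold change -0.85, adjusted p 0.0332). Hspb2, which lies head to head with Cryab on chromosome 9 and overlaps it by 252 bases on the opposite strand, had 3.33 to 5.16 CPM in BMPR2 DELX, against 5.25 to 8.79 CPM in ROSA, but did not pass (log2 fold change -0.70 ± 0.21, adjusted p 0.0675). Hspb7, a small heat shock protein of heart and skeletal muscle, had a log2 fold change of -0.41 ± 0.20, and Hspb8, the partner of the co-chaperone BAG3, had -0.11 ± 0.10, and neither passed.

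HSF1 and its regulators did not pass, with 0 of 6 called by edgeR, against 9.10% of all genes. At an unadjusted p below 0.05 there were 3 in either direction, a background of 26.3% of all genes. Hsf1 had 45.4 ± 3.23 CPM in BMPR2 DELX, against 47.7 ± 3.26 CPM in ROSA (log2 fold change -0.071 ± 0.07). Ier5, an immediate early gene whose product promotes HSF1 activity, had 101, 119, 122 and 118 CPM in BMPR2 DELX 1 to 4, against 202, 222, 133 and 139 CPM in ROSA 1 to 4. Like Dnajb1 it was highest in ROSA 1 and ROSA 2, and its log2 fold change was -0.59 ± 0.17 (edgeR adjusted p 0.0563) with all libraries and -0.22 ± 0.09 (adjusted p 0.296) without them. Ier5 was called by DESeq2 (adjusted p 0.00672). Hsf4 (0.53 ± 0.17), Hikeshi, the carrier that takes HSP70 into the nucleus (-0.20 ± 0.07), and Hsbp1 (-0.12 ± 0.06) did not pass.

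Of 22 other HSP70 genes, J-domain proteins and BAG-type co-chaperones, 1 was lower (5.15% of all genes) and 21 did not pass. Dnajb6, a J-domain protein that suppresses aggregation, had 66.9, 63.9, 67.4 and 67.5 CPM in BMPR2 DELX 1 to 4, against 87.2, 87.4, 77.9 and 70.5 CPM in ROSA 1 to 4, without overlap. It fell by 0.28 (SE 0.08, edgeR adjusted p 0.0468), a call that was lost in 7 of 8 fits without 1 library, and it had a log2 fold change of -0.14 without ROSA 1 and ROSA 2. Bag2 (-0.39 ± 0.12), Hspa12b (0.64 ± 0.21) and Hspa4l (-0.29 ± 0.15) did not pass, and Bag3, a textbook HSF1 target, had 182 ± 14.4 CPM in BMPR2 DELX, against 175 ± 9.91 CPM in ROSA. Of 14 genes on the HSP90 co-chaperone list, 0 were called by edgeR (9.10% of all genes) and 2 had an unadjusted p below 0.05 (26.3% of all genes), with Fkbp4 at 0.23 ± 0.08, Fnip1 at -0.27 ± 0.12, Fkbp5 at -0.24 ± 0.11 and Ppp5c at -0.10 ± 0.06. Bag3, Hsf1, Trap1, Col1a1, Col3a1, Lpl, Pparg, Fabp4, Csf1r, Cd68, Pax8 and Krt19 were added after their values were seen.

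Other mitochondrial chaperones and proteases had 0 of 12 called by edgeR, against 9.10% of all genes, and 5 at an unadjusted p below 0.05, in both directions, against 26.3% of all genes. Hspa9, the mitochondrial HSP70, had 538 ± 14.1 CPM in BMPR2 DELX, against 600.2 ± 22.7 CPM in ROSA (log2 fold change -0.16 ± 0.06), and its exchange factors Grpel2 and Grpel1 had log2 fold changes of -0.22 ± 0.07 and -0.21 ± 0.08, while the J-domain protein Hscb had 0.36 ± 0.14. The cytosolic chaperonin TRiC and its helper prefoldin had 0 of 14 called by edgeR (9.10% of all genes), 4 at an unadjusted p below 0.05, near the 26.3% of all genes, and a median of -0.02, with Pfdn5 at 0.22 ± 0.06, Pfdn4 at -0.18 ± 0.07, Pfdn2 at -0.19 ± 0.07 and Cct4 at 0.12 ± 0.05. DESeq2 called 17 of the 87 genes in these lists, 4 higher and 13 lower, against 1065 higher and 1219 lower of all 14887 genes.

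Among chaperones of the endoplasmic reticulum (ER), 4 of 14 were lower (5.15% of all genes) and 10 did not pass, and all 14 fitted values were negative (49.3% of all genes), with a median log2 fold change of -0.16. Dnajb9, a J-domain partner of BiP, fell by 0.61 (SE 0.12, edgeR adjusted p 0.0174), with 29.3 ± 4.48 CPM in BMPR2 DELX, against 44.7 ± 5.26 CPM in ROSA, and lost the call without ROSA 2 (log2 fold change -0.54, adjusted p 0.0553). Calr, the lectin chaperone calreticulin (by 0.26), the ER HSP90 paralog Hsp90b1 (by 0.27) and the disulfide isomerase Pdia3 (by 0.23) fell as well, and lost the call in 6, 8 and 8 of the 8 fits without 1 library. In those fits the log2 fold change lay between -0.28 and -0.23 for Calr, between -0.29 and -0.22 for Hsp90b1 and between -0.26 and -0.20 for Pdia3. Within the HSP90 family, the log2 fold changes of the ER form Hsp90b1 (-0.27 ± 0.07) and of the inducible cytosolic form Hsp90aa1 (-0.24 ± 0.07) lay within an SE of each other, while the constitutive Hsp90ab1 (0.03 ± 0.07) and the mitochondrial Trap1 (0.049 ± 0.06) had positive values smaller than their SE.

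**Figure D5:**
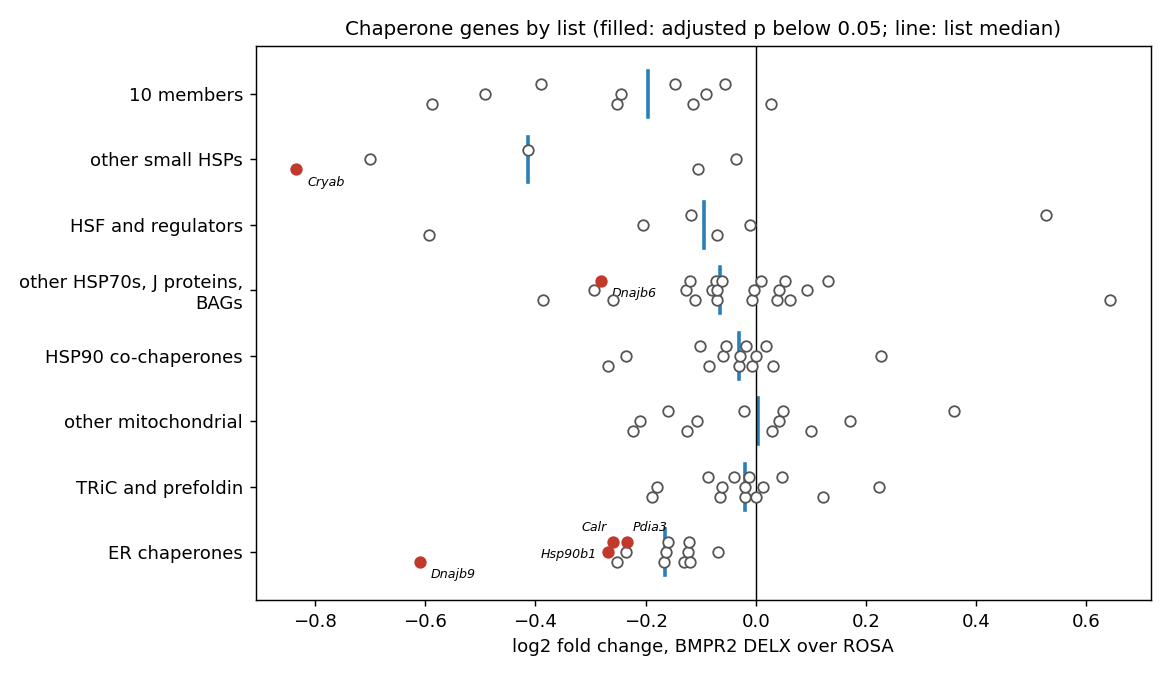
Log2 fold change of BMPR2 DELX over ROSA for each tested gene of the members and of 7 other chaperone lists, with filled points for genes at an adjusted p below 0.05 and a line at the list median. The 6 filled points are Cryab, Dnajb6, Dnajb9, Hsp90b1, Calr and Pdia3, and no member is filled.

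Over the 8 libraries, the mean profile of the members on the log2 scale, each member centred on its own mean, was -0.17, -0.091, -0.21 and -0.01 in BMPR2 DELX 1 to 4, against 0.12, 0.19, 0.14 and 0.028 in ROSA 1 to 4. Among 11701 other genes with a mean of at least 1 CPM, the 5 whose centred profiles had the smallest root mean square difference from it were Lamb1 (0.036), Nfkbib (0.043), Aen (0.044), Cdipt (0.044) and Cenpb (0.044), on the log2 scale over 8 libraries. Of the members themselves, Hspa8 lay closest to the mean profile (0.074) and Hspa1a farthest (0.31). Of these 5 genes, Aen (log2 fold change -0.28 ± 0.07, edgeR adjusted p 0.0311) and Cenpb (-0.26 ± 0.06, adjusted p 0.0334) passed the test, and each lost the call in 6 of 8 fits without 1 library. All 5 were chosen by likeness to a profile lower in every BMPR2 DELX library than in every ROSA library. A difference between the groups therefore follows from the choice and is not a separate result.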

How the data were processed

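The authors deposited 1 file of raw read counts per Ensembl gene for each of the 8 samples. The build GRCm38 and the tools STAR (2.5.2b) and HTSeq are named per the submitters' processing notes, without their roles; the annotation release and read layout are not given in the sources used here. Of the 3 deposited count columns (unstranded and 1 per strand), the opposite-strand one was used, since it held 92.1% to 94.0% of the strand-assigned counts of a library. The 4 lines that name no gene were left out of library sizes and tests. Symbols, positions and exon lengths came from GENCODE M21 (49326 of 49671 IDs found).

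Genes were filtered with filterByExpr, scaled with trimmed mean of M values (TMM) factors and tested by edgeR 4.0.16 (quasi-likelihood, robust) in R 4.3.3, with DESeq2 1.42.0 as an alternative. Log2 profiles used a prior count of 2. No 2 of the 28 pairs of libraries had identical counts. The fit was tested on simulated data with 200 changed genes. It called 19 of 67 genes planted at a log2 change of 0.5, 54 of 67 at 1 and 62 of 66 at 2, with 4.93% of calls false. Most planted changes of 0.5 were thus missed. The floor of 3 counts corresponded to 0.0687 to 0.104 CPM and covers counting error only. The members and lists were chosen with earlier results of these data known. The genes named are Bmpr2, all members, up to 4 genes of each other list by smallest p and the 5 with the profile nearest to the members' mean. Immediate early and cell type lists are given as sums, with a few of their genes named to check the label or to show what a sum holds.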

Additional observations from a re-analysis of the deposited data

Results flagged for a closer look

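Of 88 groups of 4 libraries looked at for the named genes, 4 had a library far from the other libraries of its group (by Dixon's test of the gap to the nearest other library), and chance alone gives about 1 in 20 such groups. Hspb2 had 5.16 CPM in BMPR2 DELX 3, against 3.33 to 3.49 CPM in the other BMPR2 DELX libraries, and 8.79 CPM in ROSA 1, against 5.25 to 5.53 CPM in the other ROSA libraries. Dnajb6 had 63.9 CPM in BMPR2 DELX 2, against 66.9 to 67.5 CPM in the others of its group. Grpel1 had 84.6 CPM in ROSA 2, against 75.3 to 76.9 CPM in the other ROSA libraries. No member of the 10 chaperone genes was among them.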

How the results depend on the processing

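The 3 counts of calls, the medians over their genes and the log2 fold changes of 44 named genes were recomputed under 16 other settings. Ratios, sums, medians of single lists and profiles were not. The median log2 fold change over the members ranged from -0.214 to -0.13. Over the other chaperone genes it ranged from -0.08 to -0.031, and with upper-quartile factors 51 in place of 64 of 87 were negative. With DESeq2, 2284 genes, 3 members and 17 other chaperone genes were called, against 1355, 0 and 6 with edgeR, and without ROSA 1 and ROSA 2 the counts were 172, 0 and 1. Without 1 library, 477 to 1266 genes, 0 to 2 members and 1 to 6 other chaperone genes were called. Over all genes the count fell by more than 1.5 times without BMPR2 DELX 2 (659), BMPR2 DELX 3 (870), ROSA 1 (631) or ROSA 2 (477). Of 160 values of a member under another setting, 152 kept direction and side of the threshold, 6 came to pass it and 2 reversed, Hsph1 to 0.024 without ROSA 3 and Hsp90ab1 to -0.002 without BMPR2 DELX 2. Without 1 library, the log2 fold change ranged from -0.09 to 0.024 for Hsph1 and from -0.002 to 0.063 for Hsp90ab1. Hspb8 reversed to 0.014 without ROSA 1 and ROSA 2. With the replicate number as a block, 1245 genes, 0 members and 4 other chaperone genes were called: Hspb7 (-0.448, adjusted p 0.029) and Hspa12b (0.638, adjusted p 0.0263) came to pass, Cryab and Dnajb9 still passed, and Calr, Pdia3, Hsp90b1 and Dnajb6 did not (edgeR). Deviations of samples with the same number correlated at 0.005, 0.21, 0.245 and 0.093. BMPR2 DELX 2 and 3 correlated best with the ROSA sample of their own number, and BMPR2 DELX 1 and 4 did not. Whether the numbers mark pairs is therefore not settled. The causes were not tested. Depth limits Hspa1a most, at 62 to 173 counts per library.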
